A study of Mus musculus with 8 samples.

Results

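The proteasome genes of mouse naive B cells were taken as every entry of the deposited expression table whose symbol begins with Psm, a letter from a to g and a digit. This rule found 49 of 23302 entries, and all 49 passed the minimum mean of 10 normalized counts. Of these, 5 encode the interferon-inducible parts of the immunoproteasome (Psmb8, Psmb9, Psmb10, Psme1 and Psme2) and 44 are the others. RNA was sequenced from 8 libraries of B cells from the spleens of C57BL/6 mice, in 4 groups of 2 libraries: WT mice without a tumor, WT mice with a tumor, B-EBi3- mice without a tumor and B-EBi3- mice with a tumor. The series is on pancreatic cancer. B-EBi3- is the label of mice whose B cells lack Ebi3, a cytokine subunit shared by IL-27 and IL-35. The labels do not give the driver of the deletion, the tumor model, the age or the sex of the mice, and they do not tie libraries to animals. The p-values therefore measure only the spread between these libraries, which may be technical. A tumor status of WT in the labels was read as no tumor, and every tumor comparison rests on that reading.

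The proteasome is the protease that degrades ubiquitin-tagged proteins. Its 20S core is a barrel of outer alpha rings and inner beta rings, and the beta subunits Psmb5, Psmb6 and Psmb7 carry the chymotrypsin-like, caspase-like and trypsin-like cutting sites. The 19S particle caps the barrel, binds and unfolds ubiquitinated proteins, and feeds them in with a ring of ATPases. Interferon gamma induces Psmb8, Psmb9 and Psmb10, which take the places of Psmb5, Psmb6 and Psmb7 in newly built cores, and Psme1 and Psme2, which form the PA28 cap. The resulting immunoproteasome produces peptides for MHC class I. It is abundant in lymphoid cells even without inflammation.

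Promoter sequences of an inducible pair and a constitutive subunit are shown because the report turns on how these genes moved beside each other. Each is the 250 bases before the RefSeq start, on the strand of the gene, in build GRCm38.p6. Psmb8 lies at chr17:34197945-34198194 on the plus strand, Psmb9 at chr17:34187331-34187580 on the minus strand and Psmb5 at chr14:54617996-54618245 on the minus strand. In GENCODE M21, which uses the same build, Psmb8 starts earlier, at 34197721, and the minus-strand Psmb9 extends to 34187764, so both of these windows fall inside their annotated genes. The Psmb9 window also overlaps the first bases of Tap1, which starts at 34187553 on the plus strand. Capitals mark matches, on either strand, to 4 motifs: the GAS element of STAT factors (TTCNNNGAA), the core of the interferon-stimulated response element (GAAANNGAA), the antioxidant response element (TGANNNNGC) and the CCAAT box (CCAAT).
Psmb8: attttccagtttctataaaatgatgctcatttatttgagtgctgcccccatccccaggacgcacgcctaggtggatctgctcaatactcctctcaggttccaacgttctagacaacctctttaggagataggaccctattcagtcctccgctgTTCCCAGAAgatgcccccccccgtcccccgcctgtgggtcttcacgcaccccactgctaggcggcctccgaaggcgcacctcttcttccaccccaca
Psmb9: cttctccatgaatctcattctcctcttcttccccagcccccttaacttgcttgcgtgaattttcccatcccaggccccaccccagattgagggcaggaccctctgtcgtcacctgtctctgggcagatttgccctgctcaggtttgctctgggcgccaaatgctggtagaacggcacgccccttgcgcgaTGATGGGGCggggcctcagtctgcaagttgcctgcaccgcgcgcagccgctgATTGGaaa
Psmb5: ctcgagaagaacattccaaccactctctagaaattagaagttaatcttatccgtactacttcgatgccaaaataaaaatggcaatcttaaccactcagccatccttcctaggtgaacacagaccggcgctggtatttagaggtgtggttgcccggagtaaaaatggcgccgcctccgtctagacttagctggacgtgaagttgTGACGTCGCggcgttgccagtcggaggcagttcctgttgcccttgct
In the Psmb8 window the capitals are a GAS match 97 bases before the start. In Psmb9 they are an antioxidant response element match 60 bases before the start and a CCAAT box on the other strand 8 bases before it. In Psmb5 they are an antioxidant response element match 47 bases before the start. No 2 of these matches overlap. Windows were found for 41 of the 49 genes. GAS was in 2 of these 41 (1 of 5 inducible genes and 1 of 36 others) and in 7.02% of all 32851 RefSeq windows of the same length. The interferon-stimulated core was in 3 of 41, all among the 36 others, against 7.13% of all windows. The antioxidant response element was in 17 of 41 against 35.2%, and CCAAT in 15 of 41 against 33.8%. A match is a string of letters and not a tested binding site.

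Depth ran from 21291892 to 28297319 reads per library. Ebi3 was at 8.94 and 10.97 normalized counts in WT without a tumor, 201 and 164 in WT with a tumor, 12.8 and 11.5 in B-EBi3- without a tumor, and 8.70 and 11 in B-EBi3- with a tumor, so its level separated the genotypes with a tumor and not without one. The WT tumor libraries differ from all others in the prefix of their titles (IV against OT) and carry a female pattern, with Xist at 19760 and 26190 and Eif2s3y at 0, where the other 6 libraries had Xist at no more than 18.3 and Eif2s3y at 2355 or more. Tumor, sex and title prefix cannot be told apart in any comparison that uses these libraries. The B-EBi3- tumor libraries differed from each other far less than those of the other groups (chi-square per degree of freedom 1.97 against 12.4 to 19.1). All 8 B cell markers were present in every library, and their summed share of reads was 0.757% to 1.20%.

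Among the 49 proteasome transcripts, 3 of the 5 inducible genes had the highest levels per kilobase. Per kilobase of transcript, the highest means of the 49 genes in WT mice without a tumor were those of Psme1 (8484 normalized counts per kb), Psme2 (7760) and Psmb8 (7558). Psmb9 and Psmb10 ranked 13 and 19 of the 49. These ranks depend on the transcript length used. Without division by length, Psmb1 (11442 normalized counts) stood above Psme1 (9434) and Psme2 (7465) and below Psmb8 (12305). Reads of Psme2 can be split with its near-identical retrogene copy Psme2b, so its values are uncertain. Psmb8 stood above the subunit it replaces, Psmb5 (3692 per kb), while Psmb9 (3702) stood below Psmb6 (5094) and Psmb10 (3041) below Psmb7 (3671). The lowest were the tissue-restricted subunits, Psmb11 of the thymic proteasome (3.83 per kb) and Psma8 of the testis proteasome (20.3 per kb). Psmc3ip (144 per kb) matches the symbol rule but encodes a partner of the meiotic recombination machinery and is no proteasome subunit. The 49 genes together took 0.634% ± 0.0475 (SD, n = 2) of the reads in WT without a tumor and 0.420% ± 0.0190 with one. In B-EBi3- mice the shares were 0.604% ± 0.0174 and 0.566% ± 0.000782.

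**Figure D1:**
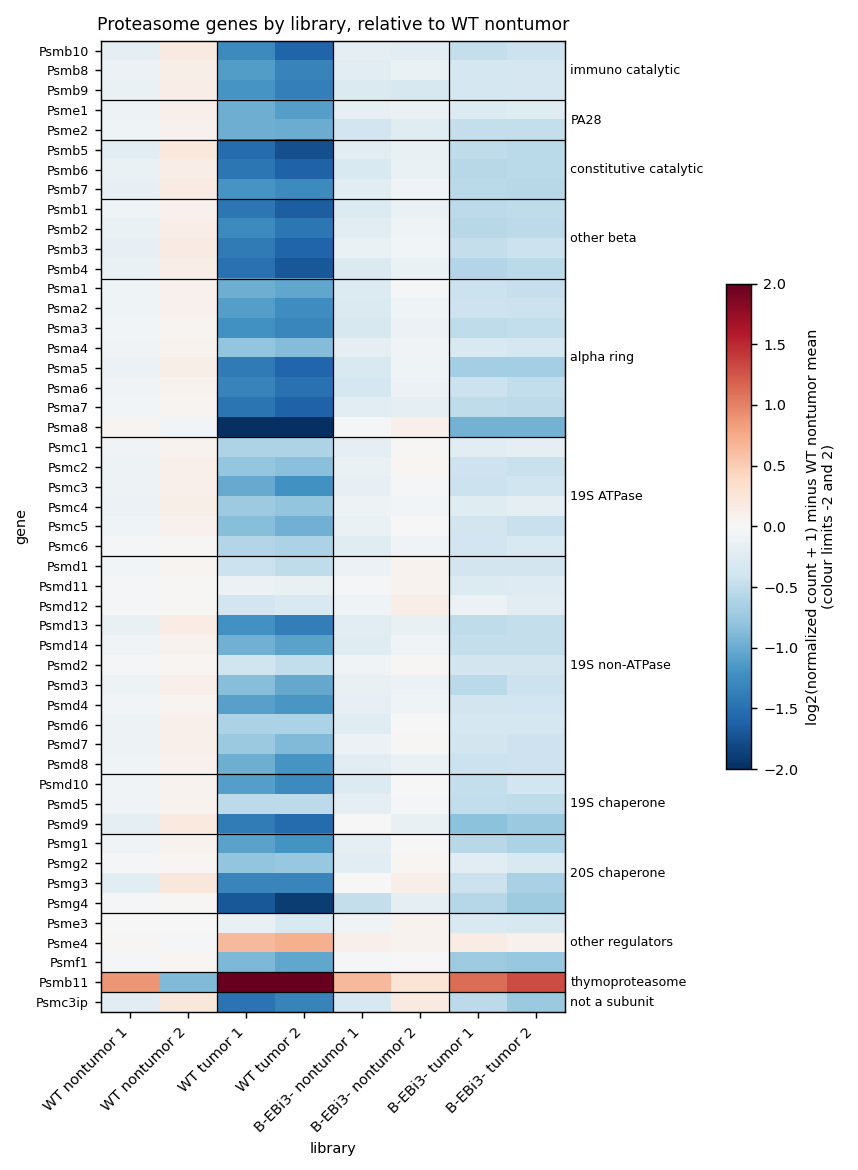
Log2(normalized count + 1) of the 49 proteasome genes (rows, grouped by role) in the 8 libraries (columns), minus the mean of the WT libraries without a tumor, with colours limited to the range from -2 to 2. The WT tumor columns are blue (lower) in 47 of 49 rows, with Psme4 and Psmb11 red, and the B-EBi3- tumor columns are paler.

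In WT mice nearly all proteasome genes were lower with a tumor. By limma, 46 of the 49 fell, 2 rose (Psmb11 and Psme4) and 1 did not pass (Psmd11), at a median log2 difference of -1.11 against 0.01 over all 13011 genes tested. Of all genes tested, 40.1% were called lower and 39.6% higher. In 47 of the 49 genes both tumor libraries lay below both nontumor libraries, and in the other 2 both lay above. Of all genes tested, 45.6% had both tumor libraries below and 45.8% above, so groups that do not overlap were common in this comparison. Of the inducible genes 5 of 5 fell, at a median of -1.22, and of the others 41 of 44 fell, at a median of -1.10.

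The inducible catalytic subunits fell by 2.33-fold to 2.71-fold. Psmb8, the inducible chymotrypsin-like subunit, was at 11303 and 13306 normalized counts without a tumor and at 5669 and 4878 with one. Psmb9, which takes the place of the caspase-like subunit Psmb6, was at 4520 and 5490 without a tumor and at 2196 and 1921 with one. Psmb10, the inducible trypsin-like subunit, was at 3511 and 4462 without a tumor and at 1640 and 1302 with one. The groups did not overlap for any of these genes. The log2 differences were -1.22 ± 0.10 (limma SE) for Psmb8, -1.28 ± 0.10 for Psmb9 and -1.44 ± 0.13 for Psmb10, with adjusted p of 7.71e-06, 6.83e-06 and 1.37e-05.

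The subunits they replace fell as well, Psmb5 and Psmb6 by larger log2 differences than Psmb8 and Psmb9, and Psmb7 by a smaller one than Psmb10. Psmb5 was at 2854 and 3783 normalized counts without a tumor and at 1131 and 969 with one (log2 difference -1.65 ± 0.13, adjusted p = 5.96e-06 by limma). Psmb6 was at 3710 and 4420 without a tumor and at 1480 and 1317 with one (-1.54 ± 0.10, adjusted p = 3.15e-06). Psmb7 was at 3792 and 4726 without a tumor and at 1868 and 1755 with one (-1.23 ± 0.11, adjusted p = 1e-05). In each case the tumor libraries lay far below both nontumor libraries, as in the panels of catalytic subunit levels.

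**Figure D2:**
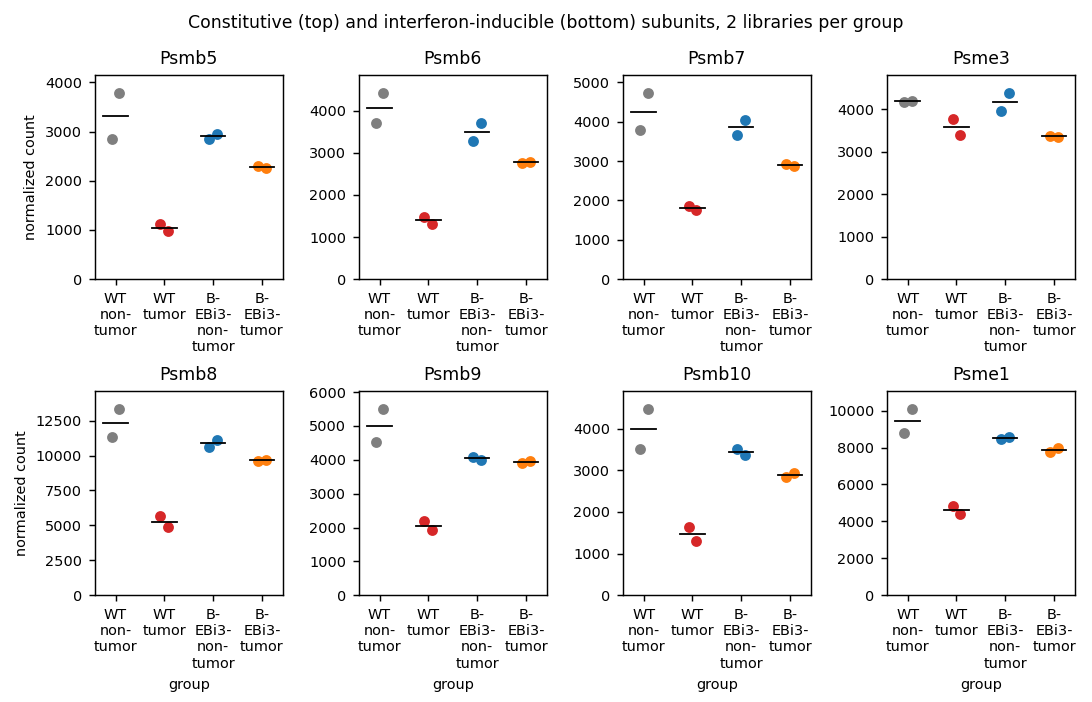
Normalized counts of constitutive subunits (top: Psmb5, Psmb6, Psmb7 and the activator Psme3) and inducible subunits (bottom: Psmb8, Psmb9, Psmb10 and the activator Psme1) in each group; each point is 1 library and each line the mean of 2. The WT tumor points are the lowest in every panel but that of Psme3, whose lowest points, 3339 and 3375, are those of B-EBi3- with a tumor.

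Within the 20S core the rest of the barrel fell alongside. All 4 beta subunits without a cutting site fell, from -1.36 for Psmb2 to -1.59 for Psmb4. All 8 alpha subunits, which form the gate of the barrel, fell, from -0.83 for Psma4 to -2.83 for the testis subunit Psma8. Psma8 was at 35.8 and 32.9 normalized counts without a tumor and at 3.97 and 3.93, or 5 reads in each library, with one, so its fold is imprecise. The 4 chaperones that assemble the core, Psmg1 to Psmg4, fell from -0.78 (Psmg2) to -1.80 (Psmg4).

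The 19S particle fell less far on the same scale. All 6 ATPase subunits fell, with a median of -0.78, from -0.61 for Psmc6 to -1.11 for Psmc3. Of the 11 non-ATPase subunits 10 fell, with a median of -0.81. Psmd13 had the largest difference among them, from 3859 and 4724 normalized counts without a tumor to 1842 and 1637 with one (-1.30 ± 0.10). Psmd11, a scaffold subunit, had the smallest, from 1715 and 1787 to 1609 and 1581 (-0.13 ± 0.07, adjusted p = 0.105 by limma). The 3 assembly chaperones fell, Psmd9 by the most (-1.47) and Psmd5 by the least (-0.52). The difference between the 20S core (median -1.46 over the 14 constitutive subunits) and the 19S particle (-0.81 over 17) is a description and was not tested. The medians were -0.61 and -0.36 after removing from each library the trend of its log2 values on length and GC content.

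The activators went separate ways. PA28 fell: Psme1 was at 8801 and 10068 normalized counts without a tumor and at 4808 and 4391 with one (-1.04 ± 0.08, adjusted p = 7.15e-06 by limma), and Psme2 went from 7050 and 7881 to 3800 and 3743 (-0.98 ± 0.08, adjusted p = 7.44e-06). Psme3, the nuclear PA28 gamma that interferon does not induce, changed little, from 4170 and 4198 to 3765 and 3385 (-0.23 ± 0.08, adjusted p = 0.0247). Psmf1, which encodes the inhibitor PI31, fell from 1489 and 1568 to 822 and 746 (-0.96 ± 0.08). Psme4, the PA200 activator of the nucleus, was an exception and rose from 1792 and 1734 to 2763 and 2890 (0.68 ± 0.07, adjusted p = 2.3e-05). Psmb11 rose from 25.7 and 6.86 to 92.1 and 101 (2.75 ± 0.50, adjusted p = 0.000827). Its nontumor libraries held 23 and 5 reads.

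**Figure D3:**
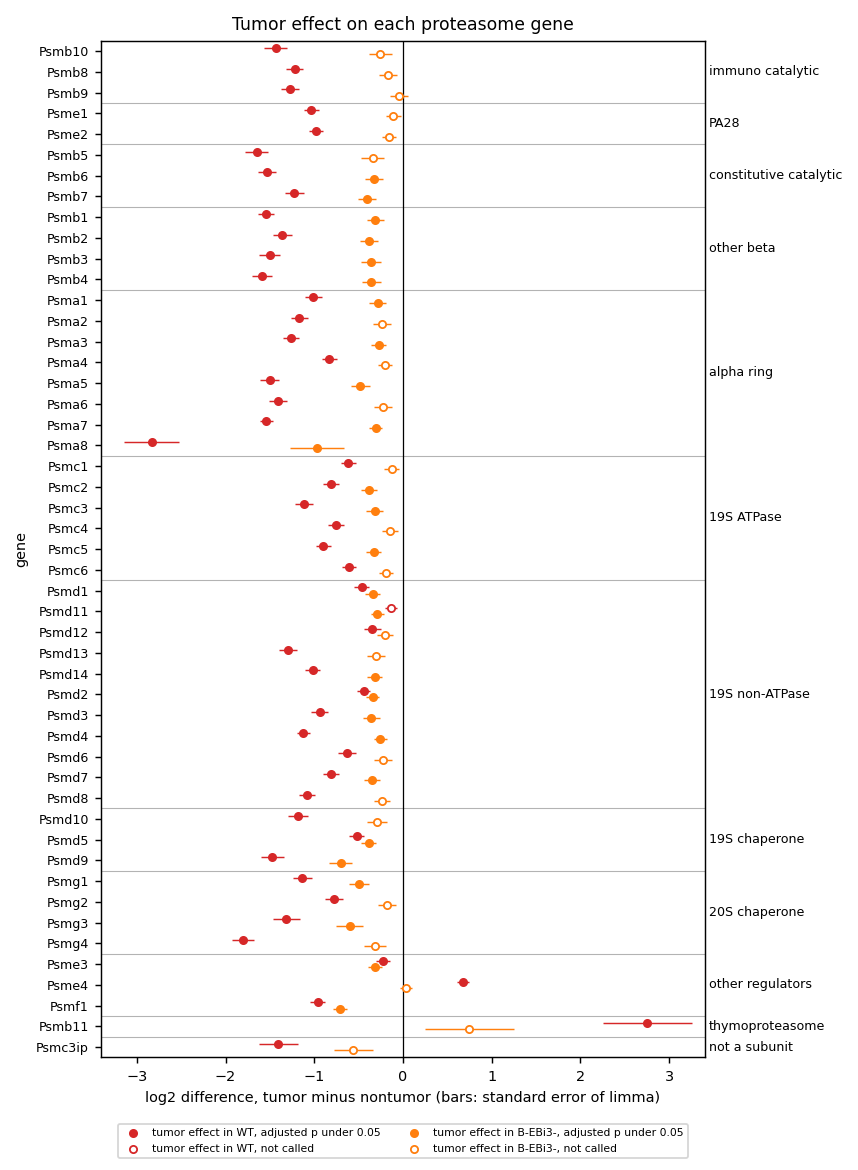
Log2 difference between tumor and nontumor libraries for each proteasome gene in WT (red) and in B-EBi3- mice (orange), with limma standard errors as bars; filled points passed an adjusted p of 0.05. The red points are left of 0 for 47 of 49 genes at a median of -1.11, and the orange points for 47 of 49 at a median of -0.31, with all 5 inducible genes open.

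These values moved with transcript length. Over all genes tested with a known length, the median tumor effect in WT was -1.31 for transcripts under 1000 bases, -0.69 from 1000 to under 2000, 0.01 from 2000 to under 4000 and 0.74 at 4000 bases and over. The proteasome genes in the same classes had medians of -1.52 (8 genes), -1.12 (28), -0.77 (10) and 0.68 (3), so their medians lay below those of all genes in each class, by the most from 2000 to under 4000 bases and by little in the longest class. Psme4 (6491 bases) and Psmb11 (4247 bases), the 2 genes that rose, are in the longest class, whose other member, Psmd5, fell. With each library's trend on length and GC content removed, 37 of the 49 were called lower, 1 higher and 11 neither, at a median of -0.46, against 37.6% lower and 37.2% higher of all genes. The inducible catalytic subunits were still lower (Psmb8 -0.49, Psmb9 -0.42, Psmb10 -0.52), as were Psmb5 (-0.59), Psmb6 (-0.50) and Psmb7 (-0.46). Psme1 (-0.09) and Psme2 (-0.05) no longer passed, Psme4 changed sign (-0.14, not called) and Psmb11 stayed higher (2.38).

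**Figure D4:**
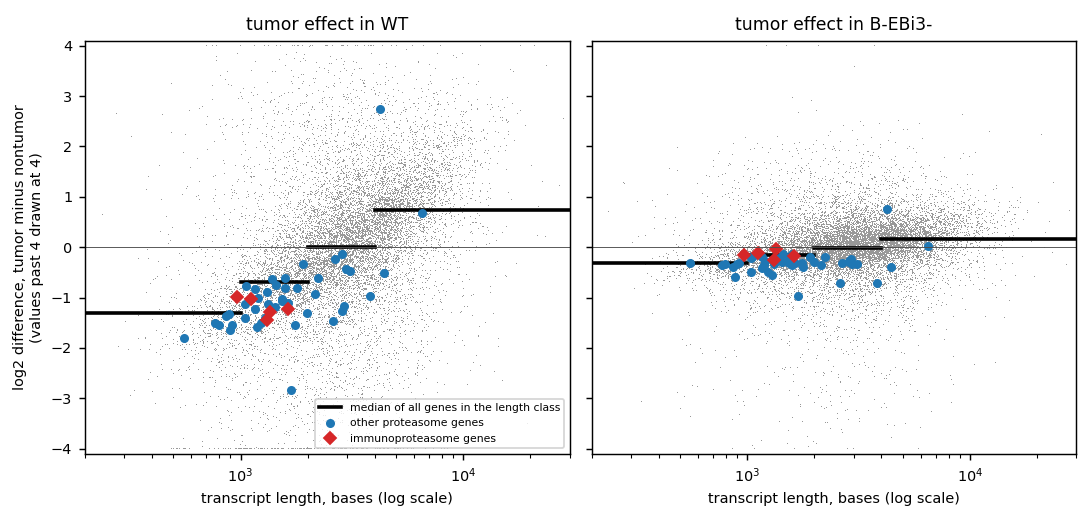
Log2 difference between tumor and nontumor libraries against transcript length in bases (log scale), in WT (left) and B-EBi3- mice (right); grey dots are all genes, black lines their medians in 4 length classes, blue circles the 44 other proteasome genes and red diamonds the 5 inducible ones. In WT the black lines climb from -1.31 to 0.74, and 44 of the 49 proteasome genes lie below the line of their class.

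Scaling and other cells also moved with the WT comparison. Scaled to total reads instead of the authors' size factors, the median of all genes shifted to 0.46, 27.1% of genes were lower and 54% higher, and 39 proteasome genes were lower and 4 higher at a median of -0.66. All 5 inducible genes were still lower (-0.53 to -0.98), while Psme3 turned to 0.22. The marker calls that follow use the authors' size factors, with which 40.1% of all genes were called lower and 39.6% higher. Of the markers of other cells, 10 of 10 monocyte and macrophage genes were lower in WT with a tumor, with their summed share of reads at 0.325% to 0.344% without a tumor and 0.0389% to 0.0443% with one. Lower as well were 8 of 8 granulocyte, 8 of 8 erythroid, 5 of 5 platelet, 5 of 5 NK, 6 of 7 T cell, 6 of 7 dendritic and 8 of 10 cycling genes (0.0868% to 0.103% without and 0.0445% to 0.0456% with a tumor, with 1 gene higher). Of the 6 plasma cell genes 3 were lower and 1 higher, and of the 8 B cell genes 5 were higher and 2 lower. No marker found in the table was at 0 in any library (8 of the 10 listed erythroid genes were found), and the part of these cells in the proteasome values was not tested. In RNA from a population, fewer cells of a type and less RNA per cell cannot be told apart.

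In B-EBi3- mice the proteasome genes were also lower with a tumor, by much less, and the inducible genes did not pass. Of the 49 genes, 27 were called lower, 0 higher and 22 neither by limma, at a median of -0.31 against -0.01 over all genes. Of all genes tested, 18.5% were called lower and 14.1% higher. The 27 calls were all among the 44 others (median -0.32), with 0 of the 5 inducible genes called (median -0.16), and the difference between these sets was not tested. In 47 of the 49 genes both tumor libraries lay below both nontumor libraries, the 5 inducible genes included, against 39% of all genes tested.

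The inducible subunits were close between the groups. Psmb8 was at 10592 and 11138 normalized counts without a tumor and at 9639 and 9711 with one (-0.17 ± 0.10, adjusted p = 0.219 by limma). Psmb9 was at 4091 and 3991 without a tumor and at 3897 and 3950 with one (-0.04 ± 0.10, adjusted p = 0.765), a difference no larger than its standard error. Psmb10 was at 3512 and 3377 without a tumor and at 2841 and 2924 with one (-0.26 ± 0.13, adjusted p = 0.156). Psme1 (8435 and 8551 to 7779 and 7988, -0.11 ± 0.08) and Psme2 (5713 and 6319 to 5370 and 5378, -0.16 ± 0.08) did not pass either.

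The constitutive catalytic subunits had larger differences. Psmb5 was at 2843 and 2961 without a tumor and at 2307 and 2268 with one (-0.34 ± 0.13, adjusted p = 0.0692 by limma), and did not pass. Psmb6 fell from 3285 and 3704 to 2770 and 2788 (-0.33 ± 0.10, adjusted p = 0.0422). Psmb7 fell from 3667 and 4042 to 2929 and 2879 (-0.41 ± 0.11, adjusted p = 0.0231). In all 3 the tumor libraries lay below both nontumor libraries. With total-read scaling neither Psmb6 (-0.15) nor Psmb7 (-0.23) passed. Neither passed without the mean trend in the prior (adjusted p of 0.096 for Psmb6 and 0.066 for Psmb7 by limma). Psmb6 also did not pass without the minimum mean (adjusted p = 0.0694 by limma). With the trend on length and GC removed Psmb6 (-0.14) did not pass and Psmb7 (-0.22) did. Leaving out 1 library gave -0.415 to -0.241 for Psmb6 and -0.477 to -0.337 for Psmb7.

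The largest called falls were in an alpha subunit of few reads, an inhibitor and an assembly factor. Psma8, the testis alpha subunit, was at 33.2 and 36.9 normalized counts without a tumor and at 17.40 and 17.42, or 20 and 19 reads, with one (-0.97 ± 0.31, adjusted p = 0.042 by limma). It lost its call in 6 of the 8 fits that left out 1 library (any tumor library or either B-EBi3- nontumor library) and with the trend on length and GC removed (-0.88). Psmf1, the PI31 inhibitor, fell from 1487 and 1513 normalized counts to 937 and 901 (-0.71 ± 0.08, adjusted p = 0.000698 by limma). Psmd9, a chaperone of the ATPase ring, fell from 1122 and 1020 to 639 and 676 (-0.70 ± 0.13, adjusted p = 0.00661). All 4 noncatalytic beta subunits fell (median -0.36), with 5 of 8 alpha subunits (-0.28), 3 of 6 ATPase subunits (-0.26), 7 of 11 non-ATPase subunits (-0.30) and 2 of 4 core chaperones (-0.40). Psmd11, which had not passed in WT, fell here from 1731 and 1830 to 1443 and 1470 (-0.29 ± 0.07, adjusted p = 0.0183). The difference between its tumor effects in the genotypes was not called (-0.15 ± 0.10, adjusted p = 0.215 by limma). With the trend on length and GC removed Psmd11 was called lower in both, at -0.25 in WT and -0.30 in B-EBi3-. Psme4 was at 1886 and 1844 without a tumor and at 1950 and 1866 with one, and its groups overlapped.

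The count of 27 rests on few libraries and on the scaling. It was 2 without B-EBi3- nontumor replicate 2, 1 and 2 without B-EBi3- tumor replicate 1 and 2, and 1 with the tumor libraries averaged as 1 sample. Set against the median of all genes in their length class, 43 of the 49 lay below it, and the 6 that did not were Psmb9, Psme1, Psme2, Psmc1, Psmc4 and Psmb11. With the trend on length and GC removed the count of lower genes was 17 (34.7%, against 18.9% of all genes). With total-read scaling, where the median of all genes shifted to 0.17, it was 5 (10.2%, against 10.5% of all genes) and 1 was higher, Psme4 at 0.21, so the share of lower calls was then no larger than among all genes. The median of the inducible genes turned to 0.03 with the trend removed and to 0.02 with total-read scaling. Marker shares moved here too. Calls of markers are again with the authors' size factors, where 18.5% of all genes were called lower and 14.1% higher. The monocyte and macrophage genes stood at 0.307% to 0.376% of reads without a tumor and 0.206% to 0.209% with one (9 of 10 lower). Erythroid genes fell from a mean of 1.253% to 0.28% of reads (8 of 8 lower, median -3.19). Granulocyte genes were lower in 6 of 8, at a median of -2.39, and higher in 0. Cycling genes stood at 0.0999% to 0.101% and 0.0481% (10 of 10 lower), and plasma cell genes at 0.102% to 0.113% and 0.217% (5 of 6 higher). Among the rest, 3 of 7 dendritic and 1 of 7 T cell genes were lower, and 2 of 8 B cell genes were higher. The part of these cells in the proteasome values was not tested.

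The ratio of an inducible subunit to the one it replaces, or of Psme1 or Psme2 to Psme3, was taken within a library and per kilobase. Such a ratio does not depend on the scaling by a library factor. In B-EBi3- mice all 5 ratios were higher in both tumor libraries than in both nontumor libraries. Single genes often separated as well, with both tumor libraries below in 39% of all genes tested and above in 36.6%. No such share was taken over ratios. Psmb8 to Psmb5 was 2.06 and 2.08 without a tumor and 2.31 and 2.37 with one, Psmb9 to Psmb6 was 0.735 and 0.636 against 0.831 and 0.836, and Psmb10 to Psmb7 was 0.848 and 0.739 against 0.858 and 0.899. Psme1 to Psme3 was 5.10 and 4.68 against 5.52 and 5.73, and Psme2 to Psme3 was 3.991 and 3.998 against 4.41 and 4.46. The changes in log2 ratio were 0.18, 0.29, 0.15, 0.20 and 0.15, and with the trend on length and GC removed 0.14, 0.30, 0.17, 0.39 and 0.33. The change of Psmb10 to Psmb7 was 0.248 without B-EBi3- nontumor replicate 1 and 0.0513 without nontumor replicate 2, and that of Psmb9 to Psmb6 was 0.181 without nontumor replicate 2. The 5 ratios share genes and libraries, and each exact permutation test, two-sided, gave p = 0.333, the smallest that 2 against 2 libraries allow.

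In WT the ratios did not move one way. Psmb8 to Psmb5 was 2.19 and 1.94 without a tumor and 2.77 and 2.78 with one, and Psmb9 to Psmb6 was 0.719 and 0.733 against 0.876 and 0.861, both higher with a tumor. Psmb10 to Psmb7 was lower, 0.819 and 0.836 against 0.777 and 0.657. Psme1 to Psme3 went from 5.06 and 5.75 to 3.06 and 3.11 and Psme2 to Psme3 from 4.68 and 5.20 to 2.80 and 3.06. The changes in log2 ratio were 0.43, 0.26, -0.21, -0.81 and -0.75, each with p = 0.333 (exact permutation). With the trend on length and GC removed they were 0.10, 0.08, -0.06, 0.14 and 0.18, so that both PA28 ratios changed sign. The change of Psmb10 to Psmb7 was -0.333 without WT tumor replicate 1 and -0.0909 without WT tumor replicate 2. Psme3 has a transcript of 2664 bases against 1112 for Psme1 and 962 for Psme2.

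**Figure D5:**
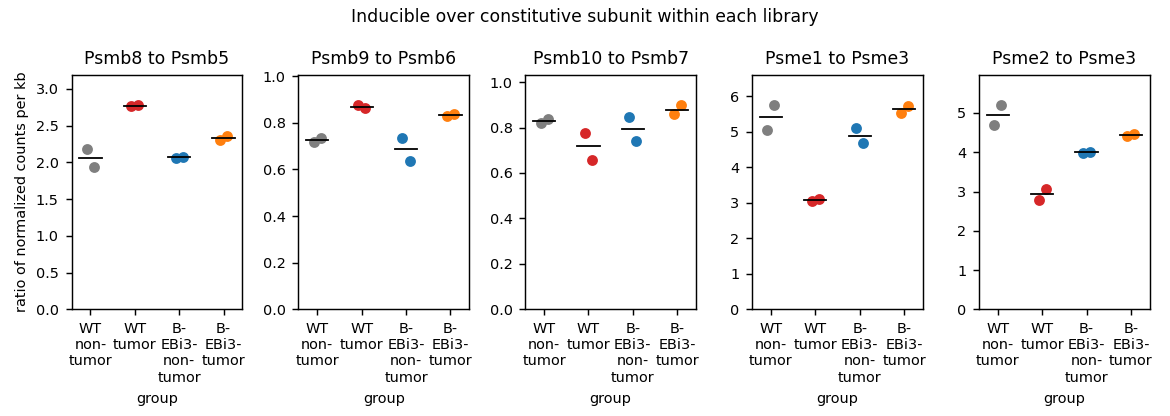
Ratio of normalized counts per kilobase of an inducible subunit to its constitutive counterpart (or to Psme3) in each group; each point is 1 library, each line the mean of 2, and each axis starts at 0. The B-EBi3- tumor points lie above their nontumor points in all 5 panels, and the WT tumor points lie below theirs in the panels of Psmb10, Psme1 and Psme2.

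Without a tumor the genotypes did not differ by the test. By limma 0 of the 49 genes were called in either direction, as were 0% of all genes tested, and 6 had an unadjusted p below 0.05, among 1049 of the 13011 genes. On the recovered reads edgeR called 0 of the 49 (6 at an unadjusted p below 0.05) and 0 of all genes (1016), and DESeq2 called 0 of the 49 (7) and 21 of all genes (654). The B-EBi3- means were lower in 43 of the 49 genes, at a median of -0.13 against 0.01 over all genes. Below 0 were 6317 of the 13011 genes tested. Both libraries lay below both WT libraries in 16 of the 49 (32.7%), against 16.1% of all genes, and in 4 of 5 inducible genes. With the trend on length and GC removed 34 of the 49 were below 0 (median -0.04), with 6134 of 12868 genes below 0. With total-read scaling 32 of the 49 were below 0 (median -0.04), with 4033 of 13011 genes below 0. For the inducible genes the differences were -0.18 ± 0.10 for Psmb8, -0.30 ± 0.10 for Psmb9, -0.20 ± 0.13 for Psmb10, -0.15 ± 0.08 for Psme1 and -0.31 ± 0.08 for Psme2, with adjusted p of 0.604 to 0.618. For Psmb5, Psmb6 and Psmb7 they were -0.18 ± 0.13, -0.22 ± 0.10 and -0.14 ± 0.11, with adjusted p of 0.604 to 0.651. Leaving out WT replicate 2 left 32 of the 49 below 0, and leaving out WT replicate 1 left 46.

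With a tumor the proteasome genes stood higher in B-EBi3- than in WT mice. By limma 41 of the 49 were higher, 2 lower (Psme4 and Psmb11) and 6 neither, at a median of 0.68. Of all genes tested, 31.9% were called higher and 28.6% lower. All 5 inducible genes were higher, Psmb8 by 0.88 ± 0.10 (9639 and 9711 normalized counts against 5669 and 4878 in WT, adjusted p = 0.000152), Psmb9 by 0.93 ± 0.10 (3897 and 3950 against 2196 and 1921, adjusted p = 0.000128) and Psmb10 by 0.98 ± 0.13 (2841 and 2924 against 1640 and 1302, adjusted p = 0.000334). Psme1 was higher by 0.78 ± 0.08 and Psme2 by 0.51 ± 0.08. Psmb5, Psmb6 and Psmb7 were higher by 1.13 ± 0.13, 0.99 ± 0.10 and 0.68 ± 0.11. The groups did not overlap in any of the 49 genes, with B-EBi3- above in 45 and below in 4, against 44.2% above and 44.7% below of all genes tested. With the trend on length and GC removed 28 were higher and 0 lower, against 26% higher and 19.7% lower of all genes, with Psmb8 (0.38), Psmb9 (0.35) and Psmb10 (0.35) among the 28, and Psme1 (0.13) and Psme2 (-0.13) not. The call of Psmb11 (-1.54) was lost without any 1 of the 4 tumor libraries. Markers of other cells moved the same way: higher in B-EBi3- with a tumor were 10 of 10 monocyte and macrophage genes (median 2.52, at 0.206% to 0.209% of reads against 0.0389% to 0.0443% in WT), 8 of 8 erythroid, 7 of 8 granulocyte, 5 of 5 platelet, 5 of 5 NK, 6 of 7 T cell, 5 of 7 dendritic, 5 of 6 plasma cell and 5 of 10 cycling genes, while 5 of 8 B cell genes were lower and 2 higher. Their part in the proteasome values was not tested.

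The tumor effect itself differed between the genotypes. The interaction, the tumor effect in B-EBi3- minus that in WT, was above 0 past the threshold in 40 of the 49 genes and below it in 2, at a median of 0.79. Of all genes tested, 27.5% were called higher and 25.4% lower in it. It was 1.05 ± 0.14 for Psmb8, 1.24 ± 0.14 for Psmb9, 1.18 ± 0.19 for Psmb10, 0.93 ± 0.12 for Psme1 and 0.82 ± 0.11 for Psme2 (adjusted p of 0.000386 to 0.00125 by limma). For Psmb5, Psmb6 and Psmb7 it was 1.31 ± 0.18, 1.21 ± 0.15 and 0.82 ± 0.15. The genes not called were Psmd1, Psmd2, Psmd5, Psmd11, Psmd12, Psme3 and Psmf1. The 2 genes below 0 were Psme4 and Psmb11, and Psmb11 (-2.004) lost its call in 6 of the 8 fits that left out 1 library, those without any 1 of the tumor or B-EBi3- nontumor libraries; over the 8 it ran from -2.89 without WT nontumor replicate 1 to -1.12 without WT nontumor replicate 2. After removal of the trend on length and GC 23 were higher and 0 lower, against 21.3% higher and 16.6% lower of all genes, with Psmb8 (0.49), Psmb9 (0.57) and Psmb10 (0.47) among the 23. The interaction was also above 0 past the threshold in 10 of 10 monocyte and macrophage genes (median 2.52), 5 of 5 platelet, 4 of 5 NK, 5 of 7 T cell, 5 of 7 dendritic, 6 of 8 granulocyte, 4 of 8 erythroid, 4 of 6 plasma cell and 5 of 10 cycling genes, and their part was not tested. This comparison and that of the genotypes with a tumor both use the WT tumor libraries, with the sex and title prefix they carry.

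Counts of the genes around the proteasome are read here beside those of all genes tested, of which 40.1% were called lower and 39.6% higher in WT with a tumor, and 18.5% and 14.1% in B-EBi3-. No list was tested as a set. Of 11 other proteasome parts and associated proteins tested, 7 fell and 3 rose in WT with a tumor. Pomp, the maturation factor of the core, fell from 4383 ± 437 (SD, n = 2) to 1487 ± 64.3 normalized counts (-1.56 ± 0.09), and Sem1, listed under its older symbol Shfm1, fell by 1.52. Pomp stayed lower with the trend on length and GC removed (-0.99). In B-EBi3- mice 5 of the 11 fell and 0 rose, Pomp among the 5 (-0.36). Of 14 genes of ubiquitin supply and delivery 9 fell and 1 rose in WT, and 6 fell and 0 rose in B-EBi3-. The ubiquitin genes Rps27a (-1.80) and Ubb (-1.06, and -0.31 with the trend on length and GC removed) fell in WT. Uba6, an alternative ubiquitin-activating enzyme, rose in WT (1.30, and 0.36 with the trend removed, for a transcript of 6590 bases).

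The regulators of proteasome transcription went both ways. Of 7 genes that control proteasome transcription 2 rose and 2 fell in WT, a smaller share each way than among all genes tested. Nfe2l1, the factor that restores proteasome transcripts when the protease is inhibited, was at 2375 ± 198 (SD, n = 2) without a tumor and 2580 ± 15.8 with one (0.12 ± 0.08, adjusted p = 0.167 by limma). With the trend on length and GC removed Nfe2l1 changed sign and was called lower (-0.21, adjusted p = 0.0132 by limma). Ddi2, the protease that activates it, rose from 323 ± 62.4 to 1086 ± 195 (1.75 ± 0.19, and 0.67 with the trend on length and GC removed, for a transcript of 9553 bases). Nfya, a subunit of the factor that binds the CCAAT box, rose by 1.002 ± 0.08 (0.73 with the trend removed). The 2 genes that fell were Ngly1 (-0.29 ± 0.07) and Nfyc (-0.24 ± 0.07). With the trend removed Ngly1 was at -0.52 and Nfyc at 0.10, the latter not called. In B-EBi3- mice 1 of the 7 rose (Nfya, 0.31) and 0 fell.

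Of 10 genes by which interferon gamma controls the immunoproteasome, 6 rose and 2 fell in WT with a tumor, at a median of 0.44, and 3 rose and 0 fell in B-EBi3- mice, at a median of 0.17. Of all genes 39.6% rose in WT and 14.1% in B-EBi3-. The WT counts were 4 higher and 2 lower, at a median of 0.09, with the trend on length and GC removed. Nlrc5, the transactivator of MHC class I genes, rose from 601 ± 135 to 2636 ± 280 normalized counts (SD, n = 2) in WT (2.14 ± 0.22, adjusted p = 2.6e-05 by limma) and from 702 to 1413 in B-EBi3- (1.05 ± 0.22, adjusted p = 0.0116). Irf1, an interferon-induced activator of these promoters, rose by 0.73 ± 0.13 in WT and by 0.49 ± 0.13 in B-EBi3-. With the trend on length and GC removed Nlrc5 was at 1.38 and 0.91 and Irf1 at 1.08 and 0.57.

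Of the 9 genes that carry and load the peptides, 2 rose and 5 fell in WT, and 1 rose and 1 fell in B-EBi3-, against 39.6% higher and 40.1% lower of all genes in WT and 14.1% and 18.5% in B-EBi3-. Tap1, the peptide transporter subunit that shares its promoter region with Psmb9, rose in both, by 0.23 ± 0.07 in WT (5255 ± 65.3 to 6165 ± 314 normalized counts, SD, n = 2) and by 0.25 ± 0.07 in B-EBi3- (5275 to 6257), with adjusted p of 0.0116 and 0.0267 by limma. Psmb9 stood at -1.28 and -0.04 in the same comparisons. B2m, the light chain of MHC class I, fell by 0.89 in WT and did not pass with the trend removed (-0.18). In B-EBi3- it was at -0.15 and did not pass.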

How the data were processed

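RNA sequencing of 8 libraries in 4 groups of 2 was used. Per the labels' protocols, RNA was extracted with an RNeasy Plus Mini kit and libraries were made with TruSeq Stranded mRNA, paired-end. Per the submitters' processing notes, Salmon, DESeq2 and mm10 were used, with versions not given in the sources used here. Values deposited by the authors are normalized counts (signal), 1 per gene symbol and library. Divided by the value of 1 read in a library, 100% came out whole within 0.01, which gave the reads and depth.

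Genes with a mean of at least 10 (13011 of 23302) were tested with limma 3.58.1 in R 4.3.3 on log2(normalized count + 1), with 1 mean per group and a prior variance following the mean. Tests were two-sided. Benjamini-Hochberg adjustment ran over all tested genes in each of 5 comparisons, and genes with an adjusted p below 0.05 are called. Fold changes are on that log2 scale and understate those of low genes. edgeR 4.0.16 and DESeq2 1.42.0 on recovered reads were alternatives. The model was tested on simulated data. Lengths and GC are those of the principal GENCODE M21 transcript, found for 12868 of the tested genes. Promoters are from RefSeq.

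Members, lists and tests were chosen with earlier results of these data known. In every comparison the 5 inducible genes and Psmb5, Psmb6 and Psmb7 are given. In each role the smallest and largest differences and those against the majority are named, and of other lists up to 4 genes with the smallest p. Named outside this rule, after their values were seen, were Nfe2l1, Tap1, Uba6 and Irf1 for their roles, Psme3 as the denominator of ratios, and genes that lost a call. 3 alternatives were added after the data had been seen: total-read scaling, the B-EBi3- tumor libraries averaged, and the crossed replicate block.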

Additional observations from a re-analysis of the deposited data

Results flagged for a closer look

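The tumor effect differed between the genotypes, by limma's test of the interaction, in 40 proteasome genes in which it was higher in B-EBi3- mice and 2 in which it was lower. Among the inducible genes the difference of log2 differences was 1.05 for Psmb8, 1.24 for Psmb9, 1.18 for Psmb10, 0.927 for Psme1 and 0.822 for Psme2. It was 1.31 for Psmb5, 1.21 for Psmb6 and 0.818 for Psmb7, the subunits they replace. The 2 genes in which the effect was lower were Psme4 (-0.648) and Psmb11 (-2). The call of Psmb11 was lost in 6 of the 8 fits that left out 1 library, where its value ran from -2.89 to -1.12. The monocyte and macrophage markers moved the same way in 10 of 10 genes (median 2.52), and their part was not tested.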

How the results depend on the processing

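Of 1106 values of 11 named genes under the alternatives, 1018 kept their direction and side of the threshold, 54 lost a call, 9 gained one and 25 changed sign; except where a setting itself explains it (fewer samples or genes), the cause was not tested. With the trend on length and GC removed, 1 gene was higher in WT with a tumor, 17 were lower in B-EBi3- with a tumor, 0 were lower in the genotype effect with a tumor, and the interaction was lower in 0 and higher in 23. In the same setting the signs turned for Psme4 in WT (-0.141), in B-EBi3- (-0.131), between genotypes with a tumor (0.0283) and in the interaction (0.01), for Psmb8 (0.00167), Psmb9 (0.151), Psme1 (0.0952) and Psme2 (0.0327) in B-EBi3- with a tumor, for Psme3 between genotypes without a tumor (0.00124) and for Psme2 with one (-0.127). The changes in log2 ratio became 0.103 (Psmb8 to Psmb5), 0.0769 (Psmb9 to Psmb6), 0.142 (Psme1 to Psme3) and 0.176 (Psme2 to Psme3) in WT, and 0.143, 0.393 (Psme1 to Psme3) and 0.33 (Psme2 to Psme3) in B-EBi3- for the pairs that moved. With total-read scaling, 4 genes were higher in WT with a tumor, 5 lower and 1 higher in B-EBi3- with a tumor, 4 lower between genotypes with a tumor and 4 lower in the interaction. Psme3 in WT (0.223) and between genotypes without a tumor (0.077) changed sign, as did Psmb8 (0.0107), Psmb9 (0.135), Psme1 (0.0701) and Psme2 (0.0167) in B-EBi3- with a tumor. With quantile normalization Psmb8 (0.00656) and Psmb9 (0.0181) in B-EBi3- with a tumor and Psme3 between genotypes without (0.0271) and with a tumor (0.024) changed sign, and ratios moved to 0.309 (Psmb8 to Psmb5) and 0.165 (Psme2 to Psme3) in B-EBi3- and 0.205 (Psmb9 to Psmb6) in WT. By edgeR Psme3 was at 0.00183 between genotypes without a tumor. A minimum mean of 50, at which Psmb11 and Psma8 are not tested, left 1 gene higher in WT, 1 lower between genotypes with a tumor and 1 lower in the interaction. Without a filter the last 2 counts were 1 and 1, and without the mean trend in the prior 8 genes were lower in B-EBi3- with a tumor and 1 lower in the interaction. With the B-EBi3- tumor libraries averaged 1 gene was lower in B-EBi3- with a tumor, 1 between genotypes with a tumor and 1 in the interaction.

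Leaving out each library in turn gave 1 to 34 genes lower and 0 to 1 higher in B-EBi3- with a tumor, 1 to 2 lower between genotypes with a tumor and 1 to 2 lower in the interaction. Between genotypes without a tumor it gave -0.383 to 0.0236 for Psmb5, -0.296 to 0.0219 for Psmb7, -0.078 to 0.0651 for Psme3, -0.42 to 1.35 for Psmb11. In the paired analysis of WT, with the title number as a replicate block, 44 genes were lower and 2 higher, against 46 and 2 without it. Same-numbered libraries deviated in opposite ways (r = -0.256 across genes), and the crossed replicate block gave 46 and 2. Depth limits Psma8, with 5 reads in each WT tumor library.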
